A study of Mus musculus with 6 samples.

Results

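Mitochondrial ribosomal protein genes were taken as every row of the deposited count table whose gene symbol begins with Mrpl or Mrps followed by a digit. The rule gave 78 of the 16519 genes in the table, 49 named Mrpl and 29 named Mrps, and all 78 passed the filter on low counts that left 12605 genes for testing. All 78 were matched by Entrez Gene ID to RefSeq, where each is protein coding, and they lie on 17 chromosomes, with 11 on chromosome 11 and 8 on chromosome 17. Bulk RNA sequencing had been done on bone marrow derived macrophages (BMDMs), cultured from the bone marrow of mice. In the 3 KO libraries the cells came from Trmt61a f/f LysmCre mice, and in the 3 WT libraries from Trmt61a f/f mice, so both genotypes carried the floxed allele. LysM-Cre, a Cre recombinase in the Lyz2 gene that is active in myeloid cells, was carried by the KO mice alone, so loss of Trmt61a and presence of Cre cannot be told apart. The labels name no stimulus, age or sex, and leave unsaid whether libraries 1 to 3 are from different animals or cultures. The p-values therefore rest on the spread among the 6 libraries alone, and that spread may be technical.

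Mitochondria translate the few proteins encoded in their own DNA, all of them parts of the respiratory chain or ATP synthase, on a ribosome of their own. The RNAs of this mitoribosome come from mitochondrial DNA, whereas its proteins are encoded in the nucleus, made in the cytosol and imported. The large subunit joins amino acids and the small subunit reads the mRNA. Some of the proteins descend from bacterial ribosomal proteins and others have no bacterial counterpart. Trmt61a codes for the catalytic part of a methyltransferase that makes N1-methyladenosine in cytosolic tRNAs. The measurements here are mRNA levels, and no protein was measured.

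Nuclear genes for mitochondrial proteins are known targets of the factors NRF1 and GABP, the second of which binds ETS motifs. The sequences below are shown because the mRNA levels of Nrf1, and of the GABP subunits Gabpa and Gabpb1, are described further on. They are the matches that lie wholly upstream of an annotated start among the genes named by p, by level per kilobase or as paralogs, and in Mrpl12 and Mrps27, each as 30 bases read 5′ to 3′ on the strand of the gene, from the RefSeq promoter windows of GRCm38.p6. Capitals mark the match to the NRF1 motif (GCGCA, any base, then GCGC) or to the ETS motif (CCGGAAG), as written or as the reverse complement. The Mrpl18, Mrpl22 and Mrps16 matches lie inside the RefSeq span of their gene, before a start further in. For Mrps16, the window at the 5′ end of the gene holds no ETS match.
Mrpl57, NRF1 motif, chr14:57826172-57826201, plus strand: tttgaatcctGCGCAGGCGCagaaggcgtc
Mrpl17, NRF1 motif, chr7:105811117-105811146, minus strand: aggctctgatGCGCACGCGCaaacgcggta
Mrps21, NRF1 motif, chr3:95871586-95871615, minus strand: ggaaagtccaGCGCCTGCGCtcagcaccga
Mrpl12, NRF1 motif, chr11:120484546-120484575, plus strand: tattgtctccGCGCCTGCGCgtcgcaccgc
Mrpl17, ETS motif, chr7:105811306-105811335, minus strand: gcatgctccgcCCGGAAGgcgcctcctcca
Mrpl18, ETS motif, chr17:12916312-12916341, minus strand: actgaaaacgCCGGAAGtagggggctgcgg
Mrpl22, ETS motif, chr11:58171600-58171629, plus strand: cttttccggtcCCGGAAGccggcctcggac
Mrpl27, ETS motif, chr11:94653725-94653754, plus strand: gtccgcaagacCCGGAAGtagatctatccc
Mrpl52, ETS motif, chr14:54426851-54426880, plus strand: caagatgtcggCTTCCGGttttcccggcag
Mrps16, ETS motif, chr14:20393546-20393575, minus strand: ttgggggcgctCTTCCGGgcttcaggctct
Mrps18a, ETS motif, chr17:46110967-46110996, plus strand: acacccctgctCCGGAAGcggaagtgcaca
Mrps18c, ETS motif, chr5:100798592-100798621, plus strand: gggtcacgtgaCTTCCGGcccgggaagcgc
Mrps27, ETS motif, chr13:99344727-99344756, plus strand: tggtaggaccaCTTCCGGcggaggcgggct

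Promoter windows were held for 69 of the 78 genes, in 75 windows of 300 bases around a start, most of them upstream. The genes without one were Mrpl4, Mrpl13, Mrpl15, Mrpl19, Mrpl38, Mrpl54, Mrps28, Mrps34 and Mrps35. Searched on both strands, the NRF1 motif was present in 13 windows, which is 17.3% of the mitoribosomal windows, against 9.65% of the 12883 windows of tested genes and 4.60% of all 32851 windows. The ETS motif was present in 26 windows, 34.7%, against 17.1% of the windows of tested genes and 8.86% of all windows. A YY1 motif, AAGATGGCG, was present in 8 windows, 10.7%, against 2.90% and 1.40% in the same backgrounds. Of the other motifs, a CACGTG E-box was present in 9.33%, against 9.74% of windows of tested genes, CCAAT in 40.0% against 37.7%, the GC box GGGCGG in 52.0% against 61.1%, and TATAAA in 6.67% against 7.30%. Genes with several windows, Mrpl2, Mrpl48 and Mrps16, were counted once per window. All Mrpl2 windows overlap and hold the E-box, so the E-box share rests partly on repeats of this gene. So NRF1, ETS and YY1 letters were each more frequent here than among tested genes, while E-box, CCAAT and TATAAA shares lay near that background and the GC box share below it. By subunit name, NRF1 letters were in 20.8% of Mrpl and 11.1% of Mrps windows, and ETS letters in 31.2% of Mrpl and 40.7% of Mrps windows. These are matches of letters and were not tested as binding sites.

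**Figure D1:**
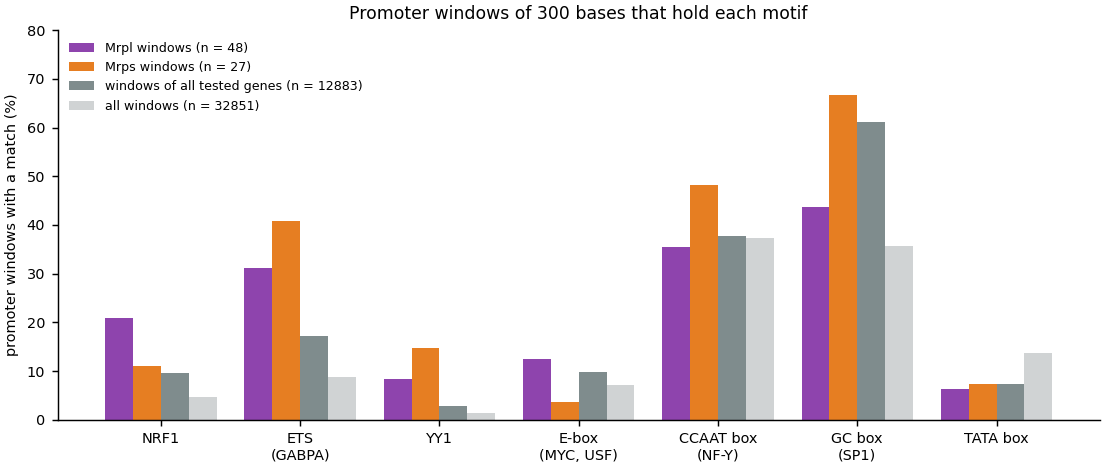
Share of promoter windows of 300 bases (y axis, percent) with at least 1 match to each motif (x axis) on either strand, for Mrpl windows, Mrps windows, windows of all tested genes and all windows. The NRF1, ETS and YY1 bars of both mitoribosomal sets stand above that of tested genes, whereas the E-box bar of Mrps windows stands below it.

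The genotype label was checked on Trmt61a, which had 0.530, 0.755 and 0.539 CPM (counts-per-million, on TMM-scaled library sizes) in KO libraries 1 to 3, against 4.96, 3.89 and 5.06 CPM in WT libraries 1 to 3. The log2 fold change, KO minus WT, was -2.92 (standard error 0.28, edgeR adjusted p = 0.00219). Gene counts summed to between 37899665 and 40710502 in KO libraries and to between 37021855 and 41033179 in WT libraries. A count of 3 corresponded to between 0.0730 and 0.0813 CPM, and such floors cover counting error only. All 8 macrophage markers were abundant, such as Csf1r, the receptor for macrophage colony-stimulating factor, with a mean of 4444 ± 609 CPM over KO libraries and 4464 ± 420 CPM over WT libraries (SD, n = 3 each), while of 5 T cell markers Cd3e, Cd3d, Cd3g and Cd8a were at or near 0 in every library and Cd4 had between 69.0 and 76.3 CPM in KO and between 70.9 and 83.2 CPM in WT. Markers of neutrophils and of cycling cells varied between libraries of both genotypes: the summed level of 8 neutrophil markers ranged from 1607 to 2571 CPM in KO and from 1617 to 2941 CPM in WT, and that of 8 cycling markers from 253 to 439 CPM in KO and from 255 to 441 CPM in WT. Summed levels of 5 fibroblast and stroma markers were 91.8, 224 and 185 CPM in KO and 137, 90.9 and 143 CPM in WT. All 5 had log2 fold changes above 0, against 50.0% of all tested genes. None had an edgeR adjusted p under 0.05, against 0.0317% of all tested genes. In bulk samples such as these, fewer cells of a type and less RNA per cell cannot be told apart.

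The comparison asked whether mRNA levels of the mitoribosomal proteins differ between KO and WT macrophages, and whether Mrpl and Mrps genes differ in this. None of the 78 genes passed the threshold, an adjusted p under 0.05 in edgeR's quasi-likelihood test with Benjamini-Hochberg adjustment over 12605 genes, where 0.0317% of all tested genes passed. Each of the 78 had an edgeR adjusted p of 0.999949. DESeq2, which called 0.103% of all genes, and limma voom, which called 0.0397%, also called 0 of the 78. At an unadjusted p under 0.05 edgeR gave 3 of the 78 genes, Mrpl57, Mrps16 and Mrps12, all higher in KO, against 3.10% of all tested genes (1.46% higher and 1.64% lower), while DESeq2 gave 2 (2.38% of all genes) and limma voom 3 (3.20%). These 3 are 3.85% of the mitoribosomal genes, a share near the background. Without KO 3, edgeR gave 0 higher and 2 lower, Mrpl12 and Mrpl50 (2.39% of all genes in that fit), and without WT 2 it gave 0 in either direction (2.91% of all genes). It gave 4 higher without KO 1 (5.34% of all genes), 2 higher without KO 2 (2.63%), 3 higher without WT 1 (2.36%), and 2 higher with 1 lower, Mrps9, without WT 3 (4.13%).

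Log2 fold changes (KO minus WT) of the 78 genes ran from -0.24 for Mrps33 to 0.47 for Mrpl57, with a median of 0.02 beside 0.00 for all tested genes. Of the 78, 42 lay above 0, which is 53.8%, where the share of all tested genes was 50.0%. The 95% interval of the fold change lay within 1.5-fold in either direction for 76 of the 78 genes, or 97.4%, against 72.4% of all tested genes and 95.4% of the 6291 tested genes with a mean between 10 and 100 CPM. It lay within 1.2-fold for 19, or 24.4%, against 39.6% of all tested genes and 50.1% of those with 10 to 100 CPM. All 78 intervals lay within 2-fold, and the exceptions at 1.5-fold were Mrpl57 and Mrps28. Changes larger than these bounds are therefore outside the 95% intervals. Smaller changes could go undetected at the adjusted threshold, as Mrpl57, with a fold change of 1.39, had an edgeR adjusted p of 0.999949. The median standard error was 0.11 on the log2 scale. Raw counts behind these values ran from 110 to 3077 per gene and library.

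**Figure D2:**
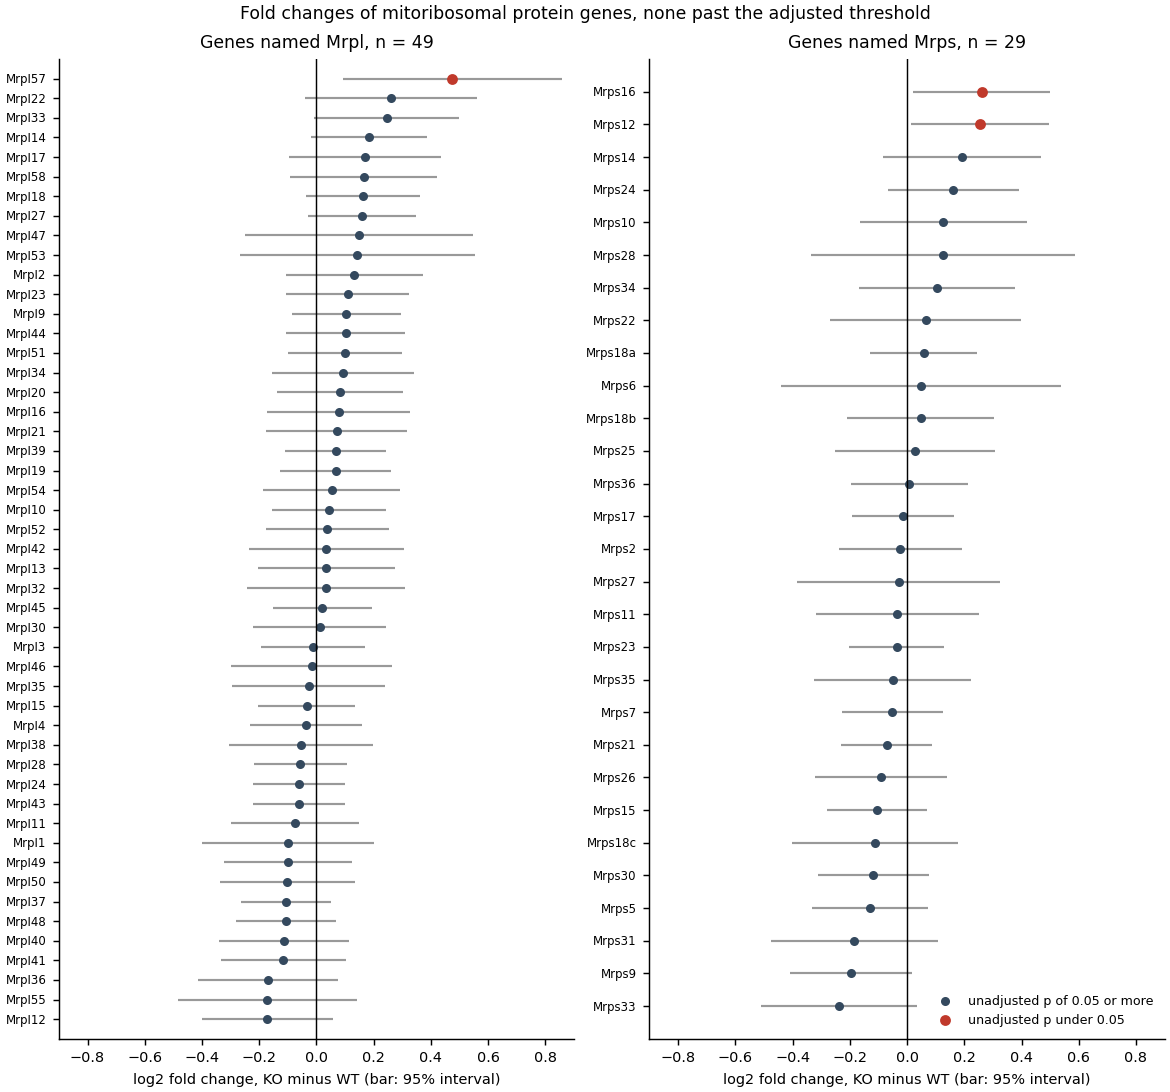
Log2 fold change of KO minus WT (x axis) with its 95% interval for the 49 genes named Mrpl and the 29 named Mrps, ordered by fold change. Points run from -0.24 to 0.47, and the red points, Mrpl57, Mrps16 and Mrps12, have an unadjusted p under 0.05, with 0 genes past the adjusted threshold.

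The libraries of both genotypes were fully separate for 13 of the 78 genes, 16.7%, against 8.65% of all tested genes. In 6 of them every KO library was above every WT library, against 4.05% of all tested genes, and these were Mrpl57, Mrpl33, Mrpl14, Mrpl27, Mrps16 and Mrps12. In the other 7 every KO library was below every WT library, against 4.59% of all tested genes, and these were Mrpl37, Mrpl41, Mrpl43, Mrpl55, Mrps5, Mrps31 and Mrps33. Both directions occurred in both name classes, 4 higher and 4 lower among Mrpl and 2 higher and 3 lower among Mrps. Some of these separations were small differences between tight groups. Mrpl37, which has no bacterial counterpart, had 27.2, 27.1 and 26.8 CPM in KO against 29.5, 29.1 and 28.8 CPM in WT, a log2 fold change of -0.11 with a 95% interval from -0.26 to 0.05.

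Among large-subunit genes, Mrpl57, which encodes a protein with no bacterial counterpart, had 8.03, 8.01 and 11.3 CPM in KO libraries and 6.34, 6.13 and 7.21 CPM in WT libraries. The genotypes did not overlap, and KO 3 stood apart above the other KO values. Its log2 fold change was 0.47 (standard error 0.17) and its 95% interval ran from 0.09 to 0.86 (edgeR unadjusted p = 0.0196, adjusted p = 0.999949), and without KO 3 it was 0.29. Mrpl57 (chromosome 14, 57826228 to 57829087, GRCm38.p6, plus strand) starts 49 bases from Ska3, a gene of chromosome segregation on the other strand. Ska3 had 0.742, 3.10 and 2.72 CPM in KO against 2.95, 1.63 and 3.43 CPM in WT, so the order of libraries seen for Mrpl57 was not seen for its neighbour.

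Mrpl33, counterpart of bacterial L33, had 12.5, 13.1 and 13.8 CPM in KO against 10.1, 11.7 and 11.4 CPM in WT, a log2 fold change of 0.25 (standard error 0.12). Mrpl14, a protein of the face that meets the small subunit, had 18.3, 19.4 and 17.7 CPM in KO against 16.4, 15.9 and 16.5 CPM in WT, a log2 fold change of 0.18 (standard error 0.09). Both genes had KO values wholly above WT values, by small margins, and neither reached an unadjusted p under 0.05. Mrpl27, counterpart of the bacterial L27 that reaches towards the peptidyl transferase centre, had 22.5, 22.0 and 23.8 CPM in KO against 21.4, 20.2 and 19.5 CPM in WT, a log2 fold change of 0.16 (standard error 0.09). In Mrpl22, whose bacterial counterpart lines the exit tunnel, KO values of 11.3, 13.0 and 13.1 CPM overlapped WT values of 12.1, 9.72 and 9.40 CPM, as WT 1 lay above KO 1. Values of Mrpl18, counterpart of bacterial L18, were 23.2, 23.9 and 25.2 CPM in KO and 20.7, 20.4 and 23.6 CPM in WT, again overlapping through 1 WT library. Log2 fold changes of Mrpl22 and Mrpl18 were 0.26 and 0.16, with 95% intervals from -0.04 to 0.56 and from -0.04 to 0.36.

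Among small-subunit genes, Mrps16, counterpart of bacterial S16, had 13.3, 14.3 and 14.6 CPM in KO and 12.3, 11.7 and 11.2 CPM in WT. All KO values were above all WT values, with a log2 fold change of 0.26 (standard error 0.11, 95% interval from 0.02 to 0.50, edgeR unadjusted p = 0.0349, adjusted p = 0.999949). Mrps12, counterpart of the S12 protein of the decoding centre, had 14.6, 14.2 and 16.9 CPM in KO and 12.8, 12.6 and 13.0 CPM in WT. Its genotypes were also separate, and its log2 fold change was 0.26 (standard error 0.11, edgeR unadjusted p = 0.0394, adjusted p = 0.999949). Mrps12 shares a divergent start region with Sars2, the mitochondrial seryl-tRNA synthetase gene, which begins 172 bases away. Sars2 had 8.03, 6.85 and 7.10 CPM in KO against 8.48, 8.61 and 8.16 CPM in WT. The 2 neighbours thus lay in opposite order, Mrps12 with KO above WT and Sars2 with KO below WT, although the log2 fold change of Sars2, -0.20 (standard error 0.14), did not pass.

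Mrps33, a protein with no bacterial counterpart, had the lowest log2 fold change of the 78, -0.24 (standard error 0.12), from 9.65, 10.3 and 10.7 CPM in KO and 11.7, 11.0 and 13.3 CPM in WT. Mrps9, counterpart of bacterial S9, had 21.5, 21.1 and 20.5 CPM in KO and 26.5, 24.5 and 21.3 CPM in WT, where WT 3 lay within the KO range and the log2 fold change was -0.20 (standard error 0.10). Neither reached an unadjusted p under 0.05. Mrps24 was nearly constant in KO at 22.0, 22.0 and 21.8 CPM, against 22.0, 19.9 and 16.9 CPM in WT, with an overlap through WT 1 and a log2 fold change of 0.16 that was 0.25 without WT 1 and 0.07 without WT 3. Mrps14, counterpart of bacterial S14, had 11.9, 11.0 and 11.3 CPM in KO against 11.1, 9.42 and 9.37 CPM in WT, with overlap through WT 1 and a log2 fold change of 0.19.

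**Figure D3:**
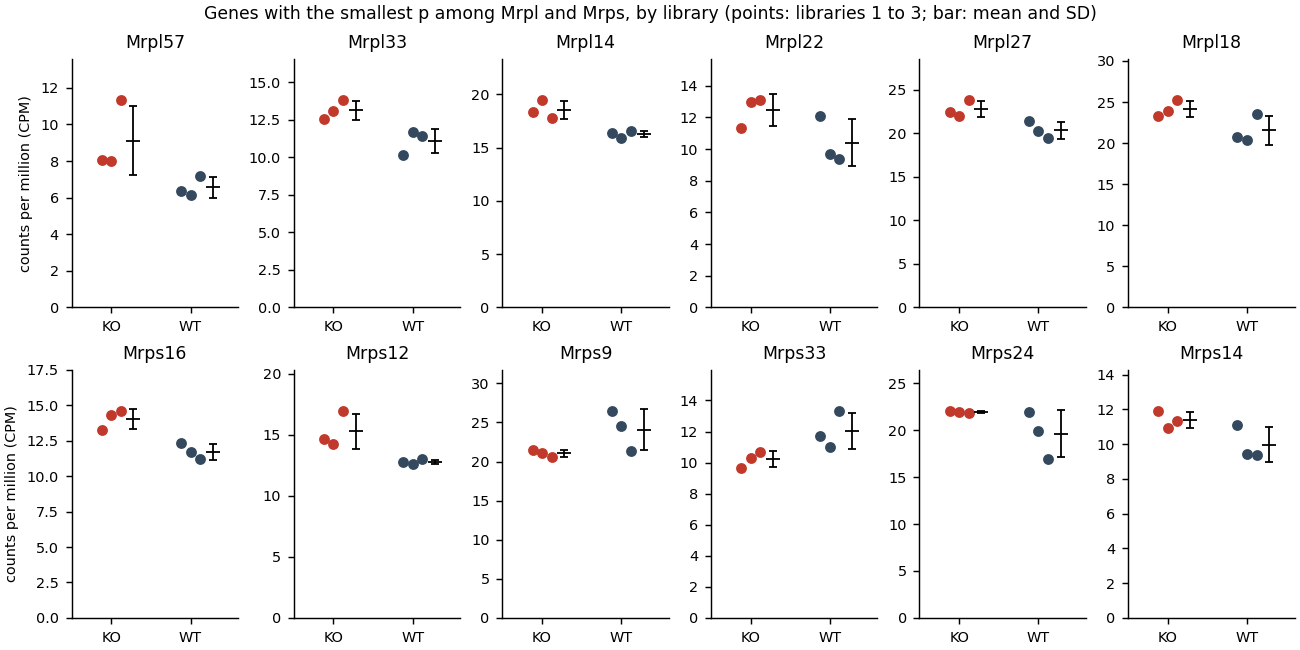
Level in CPM (y axis, from 0) of the 6 Mrpl and 6 Mrps genes with the smallest p, as points for KO and WT libraries with the mean and SD (n = 3) beside them. Genotypes are separate in Mrpl57, Mrpl33, Mrpl14, Mrpl27, Mrps16, Mrps12 and Mrps33, and overlap in the other panels.

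Set side by side, the median log2 fold change was 0.03 over the 49 Mrpl genes, with 29 above 0, or 59.2%, and -0.02 over the 29 Mrps genes, with 13 above 0, or 44.8%. The medians differed by 0.06, and no test was made over the sets. Leaving out 1 library at a time moved this difference between 0.01 (without KO 1) and 0.07 (without KO 2), and the Mrps median turned to 0.01 without KO 1 and to 0.02 without WT 3. Summed over genes, Mrpl mRNA stood at 1030, 1036 and 1072 CPM in KO and at 1031, 1037 and 1041 CPM in WT. Summed Mrps mRNA stood at 494, 512 and 540 CPM in KO and at 534, 513 and 517 CPM in WT. The means were 1046 ± 22.6 CPM in KO and 1037 ± 5.0 CPM in WT for Mrpl, and 516 ± 23.0 CPM in KO and 521 ± 10.7 CPM in WT for Mrps (n = 3 each, SD). For both sums the genotypes overlapped, and their means differed by less than the standard deviation among KO libraries. The ratio of summed Mrpl to summed Mrps mRNA was 2.08, 2.02 and 1.99 in KO and 1.93, 2.02 and 2.01 in WT, with its extremes in KO 1 and WT 1 and no separation of genotypes.

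Symbols do not always give the place of a protein. The proteins of Mrps30 and Mrps18a are known to sit in the large subunit, and the protein of Mrps36 is known as a component of the 2-oxoglutarate dehydrogenase complex. Mrps30 had 18.7, 19.3 and 20.4 CPM in KO and 20.1, 21.9 and 21.4 CPM in WT, with a log2 fold change of -0.12. Mrps18a had 30.5, 26.2 and 29.4 CPM in KO and 26.5, 27.3 and 28.9 CPM in WT, with a log2 fold change of 0.06. Its paralogs Mrps18b and Mrps18c, whose proteins sit in the small subunit, had 0.05 and -0.11, and Mrps36 had 0.01. None of these 5 separated the genotypes, where 8.65% of all tested genes did. Counted by known place, 51 large-subunit genes had a median of 0.03 and 26 small-subunit genes a median of -0.03, the same difference of 0.06. By descent, the 48 genes with a bacterial counterpart had a median of 0.05 with 28 above 0, or 58.3%. The 30 without one had a median of -0.02 with 14 above 0, or 46.7%, where the share of all tested genes was 50.0%. Mrps36 was counted among these 30, but in neither group by known place.

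Levels also varied among libraries of the same genotype. The ratio of the highest to the lowest library of a gene ran from 1.08 for Mrps17 to 1.85 for Mrpl57, with a median of 1.24 beside 1.27 for all tested genes. KO 3 was the highest library for 24 of the 78 genes, or 30.8%, against 18.5% of all tested genes, and WT 2 was the lowest for 26.9%, against 18.3%. The mean log2 deviation of Mrps genes from the mean of the 6 libraries was -0.07 in KO 1 and 0.07 in KO 3, and lay between these in the other libraries. Cycling markers stood at -0.44, 0.14 and 0.44 in KO 1, KO 2 and KO 3, and at -0.13, -0.39 and 0.39 in WT 1, WT 2 and WT 3. Neutrophil markers stood at -0.48, 0.22 and 0.22 in the KO libraries and at -0.12, -0.37 and 0.53 in the WT libraries. Among KO libraries the Mrps level was thus lowest in KO 1 and highest in KO 3, as cycling markers were. Mrpl genes had this order too, at -0.007, 0.004 and 0.053 in KO 1, KO 2 and KO 3. All tested genes were also lowest in KO 1, at -0.04, with 0.02 in KO 2 and in KO 3. WT 3, with high cycling markers, had Mrps genes near the mean, and the part of these cells in the result was not tested. Mrps27 also rose from KO 1 to KO 3, with 8.72, 11.4 and 13.8 CPM in KO against 11.3, 11.0 and 12.3 CPM in WT. Mrpl12, the counterpart of the L7/L12 stalk protein, did so too, with 27.8, 34.0 and 37.0 CPM in KO against 37.2, 34.7 and 39.6 CPM in WT. Other genes fell from KO 1 to KO 3, such as Mrpl13 with 19.5, 17.7 and 16.8 CPM and Mrps31 with 8.64, 8.16 and 7.78 CPM. Genes with either order were not counted. All of these genes were named after their values were seen.

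**Figure D4:**
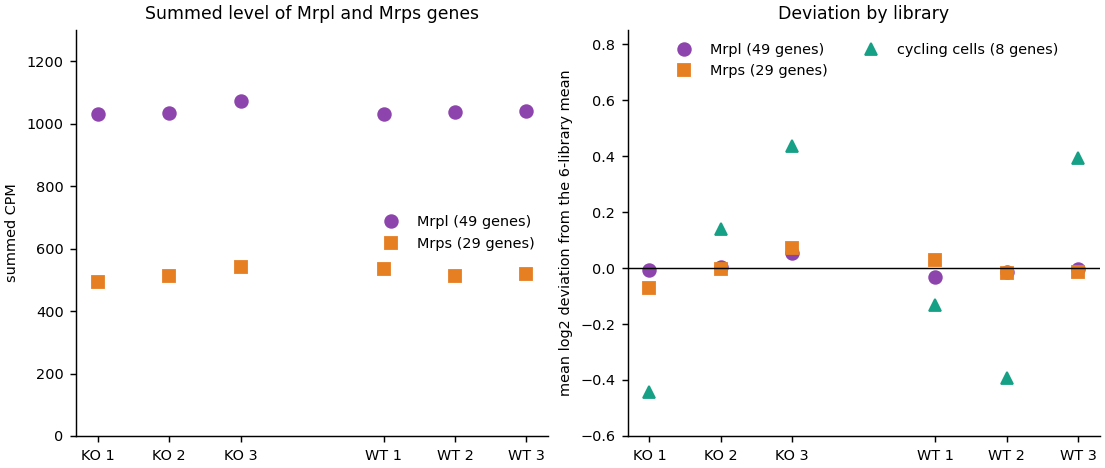
Left, summed CPM (y axis, from 0) of the 49 Mrpl and 29 Mrps genes in each library. Right, mean log2 deviation of each set and of 8 cycling markers from the mean of the 6 libraries, where Mrps runs from -0.07 in KO 1 to 0.07 in KO 3 and cycling markers from -0.44 to 0.44 in the same libraries.

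Levels of the genes relative to each other were compared per kilobase of transcript, with lengths from GENCODE M21. The median over the 78 genes was 13.3 CPM per kb, beside 7.98 CPM per kb for tested genes with a length, and it was 14.5 for Mrpl and 10.04 for Mrps. Transcripts of the 78 were short, with a median of 1302 bases beside 3083 for tested genes. The highest level was that of Mrps21, counterpart of bacterial S21, at 69.7 CPM per kb in KO and 73.2 CPM per kb in WT. Mrpl24, counterpart of L24, followed at 51.6 CPM per kb in KO and 53.8 CPM per kb in WT, then Mrpl52 at 50.1 CPM per kb in KO and 48.8 CPM per kb in WT, Mrps15 at 39.8 CPM per kb in KO and 42.9 CPM per kb in WT, and Mrpl42 at 38.8 CPM per kb in KO and 37.9 CPM per kb in WT. Neighbours in this order such as Mrpl24 and Mrpl52 differed by less than 1 SD among libraries in KO, where the coefficient of variation was 6.97% for Mrpl24 and 5.88% for Mrpl52, but by more than 1 SD in WT. Mrpl42 varied more, by 14.1% in KO and 13.2% in WT. The genes of highest level had log2 fold changes of -0.07 (Mrps21), -0.06 (Mrpl24), 0.04 (Mrpl52), -0.11 (Mrps15) and 0.03 (Mrpl42).

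As means over the 6 libraries, the lowest Mrpl levels were those of Mrpl47 at 1.90 CPM per kb in KO and 1.71 CPM per kb in WT, Mrpl17 at 2.36 CPM per kb in KO and 2.10 CPM per kb in WT, and Mrpl57 at 3.17 CPM per kb in KO and 2.28 CPM per kb in WT. Among Mrps genes the lowest, ranked in the same way, were Mrps35 at 2.80 CPM per kb in KO and 2.90 CPM per kb in WT, Mrps25 at 2.995 CPM per kb in KO and 2.94 CPM per kb in WT, and Mrps14 at 3.80 CPM per kb in KO and 3.32 CPM per kb in WT. All 6 have long annotated transcripts for this family, from 2877 bases for Mrpl57 to 7300 bases for Mrpl17. These lengths are those of the annotated principal transcript, and isoforms used in these cells were not measured. In unscaled CPM the order was different, with Mrpl24 highest at 70.6 CPM and Mrps6 lowest at 3.62 CPM as means over the 6 libraries.

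**Figure D5:**
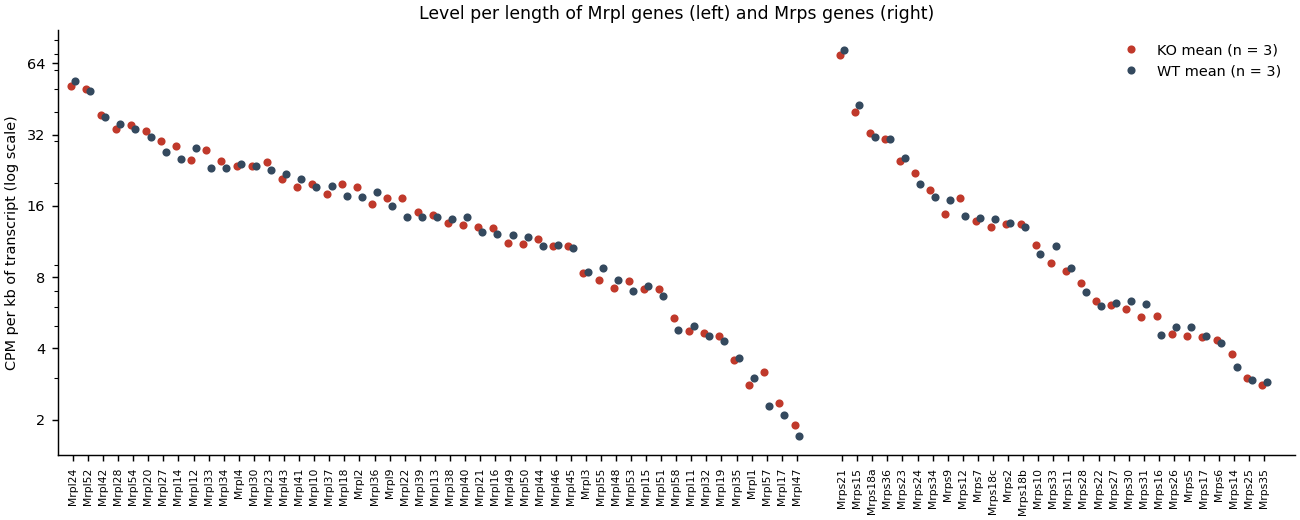
Mean level per kilobase of transcript (y axis, log scale, CPM per kb) of each Mrpl gene (left) and Mrps gene (right), ordered by level, for KO and WT (n = 3). The points of both genotypes nearly coincide for most genes, from 71.5 for Mrps21 to 1.80 for Mrpl47 as means over the 6 libraries.

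Exons of 26 of the 78 genes overlap exons of another gene in GENCODE, 21 on the opposite strand and 5 on the same strand. No source used here gives the strand setting of the counting, so these counts are uncertain. Counts of the 5 genes with a same-strand overlap stay uncertain under any strand setting. The overlap was 3533 bases for Mrps25 with Nr2c2, 1962 for Mrpl19 with Gcfc2, 594 for Mrpl24 with Rrnad1 and 452 for Mrpl47 with Actl6a. It was 638 for Mrps18b, 601 for Mrps30, 417 for Mrps27, 75 for Mrpl27 with Eme1 and 17 for Mrpl18 with Tcp1. On the same strand it was 695 for Mrpl53 with the protein-coding gene Gm42688, and the Mrpl53 transcript is 695 bases long. Also on the same strand were 305 for Mrps6, the gene of lowest CPM, 174 for Mrps18c and 107 for Mrpl33 with the predicted gene Gm43809. Mrpl57, Mrps16 and Mrps12 have none. RefSeq lists pseudogenes related to Mrpl23, Mrpl27, Mrpl48 and Mrps36, which may share reads with them.

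By GENCODE gene spans, another protein-coding gene starts on the other strand within 1000 bases upstream of 18 of the 78 genes, or 23.1%. Among 12409 tested genes with a GENCODE match the share was 10.3%. Pairs whose spans overlap at their starts were not counted. Mrpl46 and Mrps11 are not among the 18, although their RefSeq starts on chromosome 7 lie head to head. Mrpl46 starts at 78783089 on the minus strand and Mrps11 at 78783131 on the plus strand. The counted share was 24.5% among Mrpl and 20.7% among Mrps. Of the neighbours counted, 17 were tested and 0 passed, where 0.0317% of all tested genes did. Eme2, a DNA repair gene 29 bases from Mrps34, had the smallest p, with 6.36, 6.35 and 5.85 CPM in KO against 8.32, 8.36 and 7.06 CPM in WT, a log2 fold change of -0.36 (standard error 0.15, edgeR unadjusted p = 0.0387). Mrps34 itself had a log2 fold change of 0.105. Ptcd2, which starts 81 bases from Mrps27 and encodes a protein of mitochondrial RNA processing, had 25.7, 22.5 and 23.3 CPM in KO against 26.0, 27.0 and 26.9 CPM in WT, a log2 fold change of -0.16 (standard error 0.08). Fau, the ubiquitin-like fusion gene of cytosolic ribosomal protein S30 that starts 59 bases from Mrpl49, had 0.07, and Psma2, a proteasome gene 75 bases from Mrpl32, had 0.08.

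Other genes of mitochondrial translation gave the same kind of result, with 0 passing, against 0.0317% of all tested genes. Of 5 tested mitoribosomal proteins with other symbols 2 lay above 0, where the share of all tested genes was 50.0%. Dap3, a GTP-binding protein of the small subunit, had 21.5, 23.5 and 21.9 CPM in KO against 23.8, 25.3 and 22.9 CPM in WT, a log2 fold change of -0.11. Chchd1 and Gadd45gip1 had 0.08 and 0.07. Among 16 tested translation factors, 9 lay above 0 with a median of 0.01, and 1 had an unadjusted p under 0.05, against 3.10% of all tested genes. That was Slirp, an RNA-binding protein that acts with Lrpprc to stabilise mitochondrial mRNAs, with 18.2, 15.5 and 15.8 CPM in KO and 14.0, 14.4 and 13.1 CPM in WT, a log2 fold change of 0.25 (standard error 0.11). Lrpprc had 51.2, 48.9 and 54.0 CPM in KO and 48.7, 48.3 and 46.2 CPM in WT, a log2 fold change of 0.11. Mtif3, an initiation factor, had 13.2, 14.0 and 13.5 CPM in KO and 15.6, 14.8 and 16.5 CPM in WT, a log2 fold change of -0.21 (standard error 0.10). Genotypes were fully separate for 3 of the 16, Slirp and Lrpprc with KO above WT and Mtif3 with KO below WT, against 8.65% of all tested genes.

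Of 27 tested factors that assemble the mitoribosome or modify its RNA, 18 lay below 0, and the median log2 fold change was -0.04. The 9 factors above 0 made up 33.3%, where the share of all tested genes was 50.0%. In edgeR 0 of the 27 had an unadjusted p under 0.05, against 3.10% of all tested genes. That share is too low for 0 of 27 to be informative. Tfb1m, which methylates the small-subunit rRNA, had 5.57, 4.43 and 4.92 CPM in KO against 5.39, 6.83 and 6.36 CPM in WT, a log2 fold change of -0.32 (standard error 0.18). Trmt2b, a methyltransferase of mitochondrial RNA, had -0.13, and Fastkd2, which binds the large-subunit rRNA, had -0.17. Of the 7 genes of mitochondrial transcription, 2 lay above 0, or 28.6%, against 50.0% of all tested genes. Polrmt, the mitochondrial RNA polymerase, had 0.04, Tefm, its elongation factor, -0.12, and Mterf1b -0.15.

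Regulators of nuclear genes for mitochondrial proteins also gave 0 genes past the threshold, against 0.0317% of all tested genes. Of 10 tested, 7 lay above 0, or 70.0%, against 50.0% of all tested genes, with a median of 0.03. Nrf1, whose motif is in capitals in 4 of the sequences printed above, had 28.8, 30.4 and 25.6 CPM in KO against 32.6, 28.5 and 27.8 CPM in WT, a log2 fold change of -0.07 (standard error 0.09). Gabpb1, a GABP subunit, had 15.4, 16.4 and 19.3 CPM in KO against 19.7, 16.2 and 18.5 CPM in WT, a log2 fold change of -0.09 (standard error 0.12). Gabpa, another GABP subunit, had 74.2, 71.1 and 68.6 CPM in KO against 71.5, 73.8 and 72.9 CPM in WT, a log2 fold change of -0.03 (standard error 0.06). Yy1 had a log2 fold change of 0.03 (standard error 0.06). The genotypes overlapped for Nrf1, Gabpb1, Gabpa and Yy1. Ppargc1b, a coactivator of mitochondrial biogenesis, had 8.54, 7.43 and 8.0 CPM in KO and 7.16, 7.01 and 6.16 CPM in WT, so that every KO value was above every WT value, with a log2 fold change of 0.24 (standard error 0.15) that did not pass.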

How the data were processed

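Per the labels' protocols, TRIzol was used for total RNA and the VAHTS Universal V6 kit for library preparation. Raw read counts per gene were deposited for 6 libraries by the authors. Per the submitters' processing notes, reads went through fastp, HISAT2 and HTSeq on mm10. No source used here gives versions, annotation release, strand setting or gene filter, so reads that overlapping genes or close copies share may have been split or lost. Genotype and library number came from the sample titles.

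Counts were tested in edgeR 4.0.16 (R 4.3.3) with TMM factors, filterByExpr (minimum count 10), quasi-likelihood fits (robust, legacy mode) and a prior count of 0.125, adjusted by Benjamini-Hochberg over 12605 genes. Standard errors were derived from the F statistic as |log2 fold change|/sqrt(F), with intervals at 95%. The common biological coefficient of variation was 0.122. The steps were tested on simulated data with known changes. Replicate counts differed by 11.4 to 34.2 chi-square units per degree of freedom, so each library counted once. Lengths are those of the principal, longest protein-coding transcript in GENCODE M21 (GRCm38, the assembly of mm10), which also gave overlaps and neighbours. Coordinates and promoter windows come from RefSeq GRCm38.p6.

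The genes and lists were chosen with earlier results of these data known. Genes described singly were Trmt61a, the 6 Mrpl and 6 Mrps genes of smallest p, the 3 highest and 3 lowest of each per kilobase, genes whose symbol and known place differ with their paralogs, and up to 3 of smallest p in each other list. Others were named after their values were seen. Alternatives were RLE size factors, library totals alone, no filter or a stricter one, DESeq2 1.42.0, limma voom 3.58.1, a replicate block, subunit by known place, an unadjusted p, and leaving out each library, or KO 1 and WT 2 together. Mitochondrially encoded genes, Trmt61b, Mtrfr and proteins were not analysed here, and Ppargc1a did not pass the filter.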

Additional observations from a re-analysis of the deposited data

How the results depend on the processing

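Under all 14 other fits, 0 of the 78 genes passed, and the smallest adjusted p of any was 0.910 (edgeR without KO 1). Taking an unadjusted p in place of the adjusted one gave 1 Mrpl and 2 Mrps genes. Over all genes, 4 passed in edgeR, 17 in DESeq2 and 8 with the replicate block, and between 3 and 5 when each library was left out. The Mrpl median log2 fold change of 0.03 ran from 0.0122 (without KO 3) to 0.0620 (without WT 3) when single libraries were left out, the Mrps median between -0.04 and 0.02, and their difference of 0.06 from 0.0127 (without KO 1) to 0.0697 (without KO 2). Without KO 1 and WT 2 together the difference was 0.03. With the replicate block it was 0.07, with medians of 0.04 and -0.03. The labels do not say whether library numbers pair the samples, and 3 libraries a genotype cannot settle it. Deviations from the group means correlated at 0.03 for number 1, -0.13 for number 2 and 0.25 for number 3. KO 1 correlated best with WT 2 (0.30). Between 64 and 76 of the 78 genes kept the sign of their fold change without single libraries. With counts down to 110 and 3 libraries a genotype, depth and spread limit what can be detected, as the width of the intervals shows.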
